A study of Mus musculus with 45 samples.

Results

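The genes described here are the mouse zinc finger genes whose symbol runs from Zfp900 to Zfp999. They were chosen by symbol alone, as rows of the deposited RNA-seq tables that match this pattern and vary between samples. Of 33924 rows in each table, 33 carried such a symbol. Zfp957 was listed at 0 in every sample, and the other 32 members, from Zfp930 to Zfp964, varied in both tables. They stand among 21979 varying genes in the ΔPG table and 22048 in the ΔG table. A further 2 rows with a letter after the number fell outside the rule.

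The study asked what the lncRNA 5430416N02Rik does in mouse embryonic stem cells (ESCs). Ribosome-depleted, stranded total RNA was sequenced from ESCs of strain 129 in which the locus had been edited. In ΔPG cells a PGK-puro cassette replaced the promoter and the gene body, and in ΔG cells a GFP-IRES-Puro cassette replaced the gene body alone. Each line was studied as heterozygous (het) and homozygous (hom) cells, so that every group carried at least 1 edited allele and no unedited cells were among these samples. Cells were either kept as ESCs with DMSO (ES) or given 2 µM retinoic acid for 48 h (RA), which starts differentiation. The 8 groups of 3 samples were thus ΔPG and ΔG, each as ES het, ES hom, RA het and RA hom. Het and hom cells are separate clones, so a difference between clones and a difference between genotypes cannot be told apart. The study's methods call the 3 samples of a group biological replicates. All 3 came from cells of 1 line and genotype, and p-values measure the spread between these samples.

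Zinc finger proteins of the C2H2 class bind DNA through arrays of short fingers, each folded around a zinc ion that is held by a pair of cysteines and a pair of histidines. Many mouse members also carry a KRAB box at their N terminus. The KRAB box recruits Trim28, which in turn brings the histone methyltransferase Setdb1 and other repressors to the bound site. In ESCs this machinery is known for silencing endogenous retroviruses and for protecting imprinted regions. The genes lie in clusters that grew by local duplication, so neighbouring copies are often alike in sequence.

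The coding sequences of the files' gene models held this architecture. A C2H2 finger pattern was found in 31 of the 32 members, with 0 to 18 fingers per protein and a median of 10.5. Zfp950 had none, and Zfp945 had the most. A KRAB box pattern was found in 23 members (71.9%), against 99 of 302 other Zfp genes with a coding sequence (32.8%) and 1.11% of all coding genes tested. The letters of these patterns are given with the processing, and a missed match does not show that a domain is lacking.

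The next sequences are examples of the base composition of fingers in these genes. Each is the coding stretch of the finger nearest the N terminus, of 21 residues, read 5′ to 3′ on the coding strand of NCBIM37, the assembly also called mm9. Capitals mark the codons of the zinc-binding cysteines and histidines. Zfp930, Zfp936, Zfp951 and Zfp961 carry the main results below, and Zfp956 is the member with the highest GC content.
Zfp930: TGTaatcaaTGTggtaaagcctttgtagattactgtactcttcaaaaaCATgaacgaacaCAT
Zfp936: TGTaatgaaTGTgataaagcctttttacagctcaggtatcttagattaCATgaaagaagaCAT
Zfp951: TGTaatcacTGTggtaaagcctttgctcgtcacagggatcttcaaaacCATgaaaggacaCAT
Zfp961: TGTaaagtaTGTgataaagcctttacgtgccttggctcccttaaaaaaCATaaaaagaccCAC
Zfp956: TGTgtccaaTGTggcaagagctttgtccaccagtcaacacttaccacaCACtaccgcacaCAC

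The stretches lie in coding exons at chr8:71751863-71751925 (plus strand) for Zfp930, chr7:50444931-50444993 (plus) for Zfp936 and chr5:105244124-105244186 (minus) for Zfp951. The Zfp961 stretch lies at chr8:74491979-74492041 (plus) and that of Zfp956 at chr6:47913686-47913748 (plus). GC made up 33.3% of the bases in the Zfp930 stretch, 31.7% in Zfp936, 42.9% in Zfp951, 38.1% in Zfp961 and 50.8% in Zfp956. A single stretch does not stand for the gene: over whole exons, GC was 40.4% in Zfp951 and 45.2% in Zfp961.

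Over whole exons, members had a median GC content of 38.5%, with a range of 35.6% in Zfp931 to 53.6% in Zfp956. The median of the other 305 Zfp genes was 47.0%, and that of the 11904 ΔPG genes whose mean rlog reached 3 was 50.0%. Of the 32 members, 23 lay below 41.7% GC, the 10th percentile of those genes. An rlog value is a regularized log2 expression value of DESeq2, in which low values are drawn together, so that differences between low genes are understated.

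Promoters were read from RefSeq, which matched 29 of the 32 symbols, as 250 bases before and 50 after a gene's start in GRCm38.p6. They are shown for the 3 members with the strongest falls after RA in ΔG het cells. Capitals mark CpG dinucleotides.
Zfp961: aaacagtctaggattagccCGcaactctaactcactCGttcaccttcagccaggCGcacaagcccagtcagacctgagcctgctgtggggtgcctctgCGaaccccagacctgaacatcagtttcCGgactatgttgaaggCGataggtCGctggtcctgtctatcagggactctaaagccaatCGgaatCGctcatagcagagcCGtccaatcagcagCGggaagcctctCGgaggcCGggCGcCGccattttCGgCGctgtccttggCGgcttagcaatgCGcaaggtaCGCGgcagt
Zfp936: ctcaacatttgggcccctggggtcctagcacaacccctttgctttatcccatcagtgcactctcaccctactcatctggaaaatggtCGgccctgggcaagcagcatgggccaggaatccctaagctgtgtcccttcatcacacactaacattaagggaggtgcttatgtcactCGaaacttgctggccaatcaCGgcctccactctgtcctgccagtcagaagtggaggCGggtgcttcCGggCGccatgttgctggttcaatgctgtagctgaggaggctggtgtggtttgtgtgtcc
Zfp951: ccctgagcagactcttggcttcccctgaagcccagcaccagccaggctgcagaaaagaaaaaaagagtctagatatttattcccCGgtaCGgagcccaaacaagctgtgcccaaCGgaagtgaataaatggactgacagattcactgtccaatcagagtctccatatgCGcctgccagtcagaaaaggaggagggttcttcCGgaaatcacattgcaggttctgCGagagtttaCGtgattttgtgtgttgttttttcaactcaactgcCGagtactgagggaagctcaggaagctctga

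These windows lie at chr8:71950816-71951115 (plus) for Zfp961, chr7:43177340-43177639 (plus) for Zfp936 and chr5:104859978-104860277 (minus) for Zfp951. Zfp961 held 21 CpG dinucleotides, Zfp936 6 and Zfp951 8, beside a median of 9 over the members' promoters and 7 over all 27025 symbols. The letters AGGTCA, the half-site of retinoic acid receptors, were searched on both strands. They occurred in 3 of the 29 members (10.3%) and in 16.0% of all symbols, and in none of the windows shown.

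On the chromosomes, 10 members lay on chromosome 17, 5 each on chromosomes 7 and 8, 3 on chromosome 13, and the others singly or in pairs. A cluster of 7 (Zfp948, Zfp942, Zfp943, Zfp947, Zfp944, Zfp946 and Zfp945) spanned 1.30 Mb at chr17:21704010-23004101 of NCBIM37. Within it, Zfp942 on the minus strand and Zfp943 on the plus strand stand head to head, with 87 bases between them.

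Levels of different genes were compared per length, as the mean rlog value over the 24 samples minus the log2 of exonic kilobases. On this scale Zfp961 was highest at 6.42, followed by Zfp936 at 6.19, Zfp951 at 5.91 and Zfp930 at 5.78. The lowest were Zfp950 at 1.47, Zfp943 at 1.73 and Zfp964 at 2.15. Without the length term, mean rlog values were highest for Zfp961 (8.40), Zfp945 (7.32) and Zfp951 (6.75), and lowest for Zfp950 (1.94), Zfp939 (2.07) and Zfp964 (2.65).

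Shared sequence touches the values of single members. Of all exonic windows of 96 bases, 69.3% in Zfp960 recurred elsewhere in the genome, 36.3% in Zfp932, 29.0% in Zfp937 and 24.9% in Zfp934, and their values are uncertain for that reason. In the other members this share was 14.2% or less, 13.2% in Zfp936 and 0% in Zfp930 and Zfp941. Zfp950, Zfp953, Zfp956 and Zfp963 share exonic bases with another gene on the same strand.

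In each table the samples followed their labels. The lncRNA 5430416N02Rik read 4.58 to 4.62 in ΔPG ES het against 2.21 to 2.46 in ΔPG ES hom, and 5.50 to 5.58 in ΔG ES het against 2.63 to 2.85 in ΔG ES hom. All 6 ES cell markers were high in ES samples (rlog 9.57 to 11.8) and lower after RA (5.51 to 7.95). Over the 4 fibroblast markers, values ranged from 0.807 to 4.04 in ES and from 1.09 to 9.11 in RA samples. The 6 primitive endoderm markers ranged from 2.20 to 4.32 in ES and from 4.11 to 8.00 in RA samples. A change in the share of cells of a type and a change in RNA per cell cannot be told apart in bulk samples, and the part of these cell types in the members' values was not tested. The 3 Zscan4 genes, measured from a two-cell-like list of 5, ranged from 2.94 to 5.25 in ES and from 5.42 to 8.52 in RA samples. From ΔPG ES het to hom their means went from 4.10 to 4.76 (Zscan4c), 4.61 to 5.02 (Zscan4d) and 3.02 to 4.16 (Zscan4f), and from ΔG ES het to hom from 4.89 to 4.22, 5.18 to 4.19 and 4.39 to 3.83. Their part in the members' values was not tested. Trp53 read 6.95 to 7.15 in ΔPG ES het, 3.83 to 4.24 in ΔPG ES hom and 2.24 to 2.78 in ΔG ES samples. The part of this gap in the members' values was not tested.

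A gene was called in a comparison at a Benjamini-Hochberg adjusted p under 0.1, from limma over all varying genes, with an absolute log2 difference over 0.5. With 3 samples against 3, an exact permutation test of 1 gene cannot go below p = 0.1, so single genes rest on the model across all genes. All differences are on the log2 scale of rlog values. The tables of ΔPG and ΔG were normalized separately, and no test was made across them. The comparisons within a table share samples, for instance the ES het samples of ΔPG.

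After RA in ΔG cells, more members fell than rose. In ΔG het cells 10 of the 32 fell and 2 rose, where 11.7% of all genes fell and 17.7% rose. In ΔG hom cells 10 fell and none rose, where 12.1% of all genes fell and 17.0% rose. At an unadjusted p under 0.05, 22 members and 53.0% of all genes differed in ΔG hom. The size of these counts depended on the settings. After quantile normalization 19 members fell in ΔG het and 17 in ΔG hom, where 15.0% of all genes fell in each. Without a minimum difference 19 fell in each, where 23.8% of all genes fell in ΔG het and 23.4% in ΔG hom. Among genes with a mean rlog of at least 3, 10 of 29 members fell in each, where 20.0% and 20.7% of these genes fell. With the trend with GC content described below removed, 7 of 29 members fell in each, where 22.3% and 22.8% of all genes fell, a share near the background. The median member differed by -0.32 in ΔG het and -0.30 in ΔG hom, where the median of all genes was 0.04 and 0.02. Of the other 303 Zfp genes, 47 fell and 64 rose in ΔG het, with a median of 0.05.

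Zfp961 fell most. It encodes a KRAB protein with 11 fingers and occupies chr8:74474937-74517307 on the plus strand. In ΔG ES het it read 9.36, 9.38 and 9.40, and in ΔG ES hom 9.46, 9.45 and 9.42. After RA it read 7.81, 7.55 and 7.64 in ΔG het and 7.64, 7.62 and 7.54 in ΔG hom. The ES and RA groups did not overlap, and the gap between them was many times the spread within each group. The difference was -1.71 (SE 0.0829, adjusted p = 1.14e-10, limma) in ΔG het and -1.85 (SE 0.056, adjusted p = 8.45e-15) in ΔG hom. On the opposite strand it shares 181 exonic bases with Cyp4f18, a pair that the strand-specific counting separates.

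Zfp936, a KRAB protein gene with 11 fingers at chr7:50442540-50445851 (plus strand), followed. It read 7.66, 7.52 and 7.58 in ΔG ES het and 6.04, 6.30 and 6.33 in ΔG RA het. In ΔG hom it went from 7.80, 7.76 and 7.57 to 5.92, 6.34 and 6.18. Neither pair of groups overlapped, and the differences were -1.36 (SE 0.0907, adjusted p = 2.57e-08) and -1.56 (SE 0.106, adjusted p = 6.85e-10).

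Zfp951, with 10 fingers and a KRAB box at chr5:105242366-105246371 (minus strand), read 7.56, 7.32 and 7.31 in ΔG ES het and 6.08, 6.16 and 5.93 in ΔG RA het. In ΔG hom its values were 7.57, 7.53 and 7.52 as ES and 6.36, 6.71 and 6.35 after RA. All RA values lay below all ES values. The differences were -1.34 (SE 0.0934, adjusted p = 4.03e-08) in ΔG het and -1.07 (SE 0.0973, adjusted p = 3.97e-08) in ΔG hom.

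In all, 8 members fell in both ΔG het and ΔG hom, namely Zfp930, Zfp931, Zfp934, Zfp936, Zfp941, Zfp951, Zfp960 and Zfp961. All but Zfp934 matched the KRAB pattern, as did 71.9% of all 32 members. Zfp930, with 12 fingers, differed by -0.88 in ΔG het and -0.74 in ΔG hom. Zfp941, with 9 fingers and without recurring windows, differed by -0.91 and -0.70. Zfp960 differed by -0.92 and -0.94, and most of its exonic windows recur elsewhere. Zfp934 differed by -0.58 and -0.66, and Zfp931 by -0.52 and -0.56. Zfp931 lost its call when ΔG ES het replicate 3 (-0.49), ΔG RA het replicate 1 (-0.44) or replicate 2 (-0.45), or ΔG RA hom replicate 2 (-0.46) was left out. Zfp934 lost its call in ΔG het without ES het replicate 3 (-0.44).

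**Figure D1:**
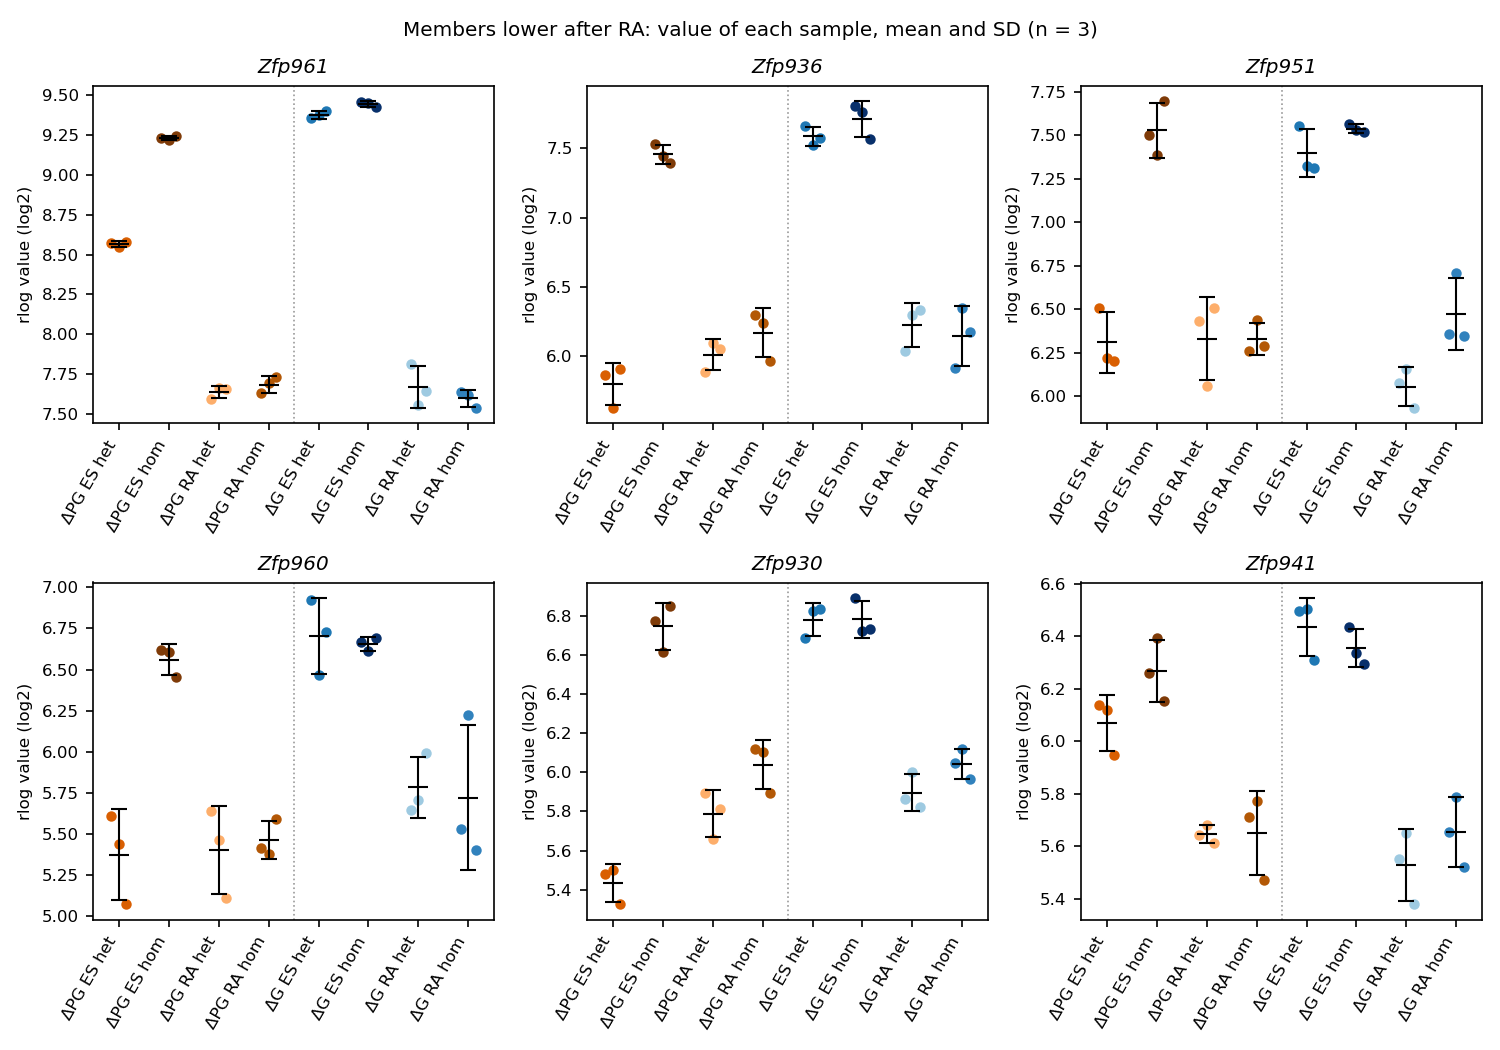
The rlog value (log2) of each sample is plotted for Zfp961, Zfp936, Zfp951, Zfp960, Zfp930 and Zfp941, with points for the 3 samples of a group and a bar for mean and SD. The dotted line separates the ΔPG from the ΔG table, which were normalized separately, and in ΔG every RA sample of these genes lies below every ES sample.

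Few members rose after RA in ΔG cells. Zfp964 read 2.28, 2.43 and 2.15 in ES het and 3.06, 3.06 and 3.05 in RA het, a difference of 0.77 (SE 0.129, adjusted p = 0.000201). Zfp937 differed by 0.67 in ΔG het (SE 0.116, adjusted p = 0.00027). In ΔG hom the differences were 0.44 for Zfp964 and 0.32 for Zfp937, under the limit of 0.5. After quantile normalization of the samples, Zfp964 (0.48) and Zfp937 (0.32) fell under it in ΔG het too. The difference between het and hom in the response of either gene did not pass the test.

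In the chromosome 17 cluster, Zfp947 alone was called among the 7 members after RA in ΔG cells, at -0.51 in ΔG hom. Once the GC trend was removed, Zfp947 was not called (-0.27), and Zfp942 in ΔG het (0.50) and Zfp948 in ΔG hom (0.60) were called higher. Zfp947 lost the call without ES hom replicate 2 (-0.47) or 3 (-0.46), or RA hom replicate 1 (-0.45) or 3 (-0.50, short of the limit before rounding). The others ranged from -0.38 to 0.27 in ΔG het and from -0.30 to 0.45 in ΔG hom. The cluster median was -0.20 in ΔG het and -0.14 in ΔG hom, and that of the 25 members elsewhere was -0.42 and -0.36. The head-to-head neighbours Zfp942 and Zfp943 differed by 0.27 and -0.02 in ΔG het, and by 0.50 and 0.26 with the GC trend removed.

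In ΔPG hom cells 9 members fell and 1 rose after RA, beside 11.3% and 16.5% of all genes. Of the 9 that fell, 7 also fell in both ΔG het and ΔG hom, namely Zfp930, Zfp931, Zfp936, Zfp941, Zfp951, Zfp960 and Zfp961. Over all genes tested in the 3 comparisons, 9.27% fell in each of them, and 15.2% of those with a mean rlog of at least 3. Once the GC trend was removed, 5 of 29 members (17.2%) and 16.8% of all genes did so. Zfp961 went from 9.23, 9.22 and 9.25 to 7.63, 7.69 and 7.73, a difference of -1.55 (SE 0.047, adjusted p = 3.81e-10). Zfp936 went from 7.53, 7.44 and 7.39 to 6.30, 6.24 and 5.97, a difference of -1.29 (SE 0.0933, adjusted p = 4.61e-07). Zfp951 differed by -1.20, Zfp960 by -1.10, Zfp938 by -0.75, Zfp930 by -0.71, Zfp931 by -0.68, Zfp941 by -0.62 and Zfp958 by -0.54. Zfp958 lost its call without ΔPG ES hom replicate 3 (-0.47). Zfp964 rose by 0.56 and lost its call without ΔPG ES hom replicate 1 (0.43), ΔPG RA hom replicate 2 (0.44) or replicate 3 (0.52, adjusted p = 0.115).

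In the values as deposited, ΔPG het cells stood apart. Here 8 members rose and 2 fell after RA, beside 18.0% and 13.6% of all genes, and the median member differed by 0.36. Zfp942 went from 5.23, 5.07 and 5.17 to 6.35, 6.05 and 6.46, a difference of 1.13 (SE 0.112, adjusted p = 8.23e-05). Its neighbour Zfp943 differed by 1.02 (SE 0.115, adjusted p = 0.000176) and Zfp935 by 0.91 (SE 0.174, adjusted p = 0.00305). Zfp937, Zfp948, Zfp963, Zfp945 and Zfp932 were also called higher. With the GC trend described below removed, the median member differed by -0.13, and of these genes only Zfp942 was still called higher. Zfp961, Zfp941, Zfp954 and Zfp953 then fell, where 23.4% of all genes rose and 22.3% fell.

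The 2 members that fell in ΔPG het were Zfp961 and Zfp954. Zfp961 went from 8.57, 8.55 and 8.58 to 7.59, 7.66 and 7.66, a difference of -0.93 (SE 0.0331, adjusted p = 3.53e-07), and it was the only member to fall in all 4 RA comparisons. The share of all genes that fell in all 4 is not given here. Zfp954, with 8 fingers and the second highest GC content among members, differed by -0.61 (SE 0.0955, adjusted p = 0.00108). Zfp936 read 5.86, 5.63 and 5.91 before and 5.88, 6.10 and 6.05 after RA, so its groups overlapped. Its difference of 0.21 was not called (adjusted p = 0.109).

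**Figure D2:**
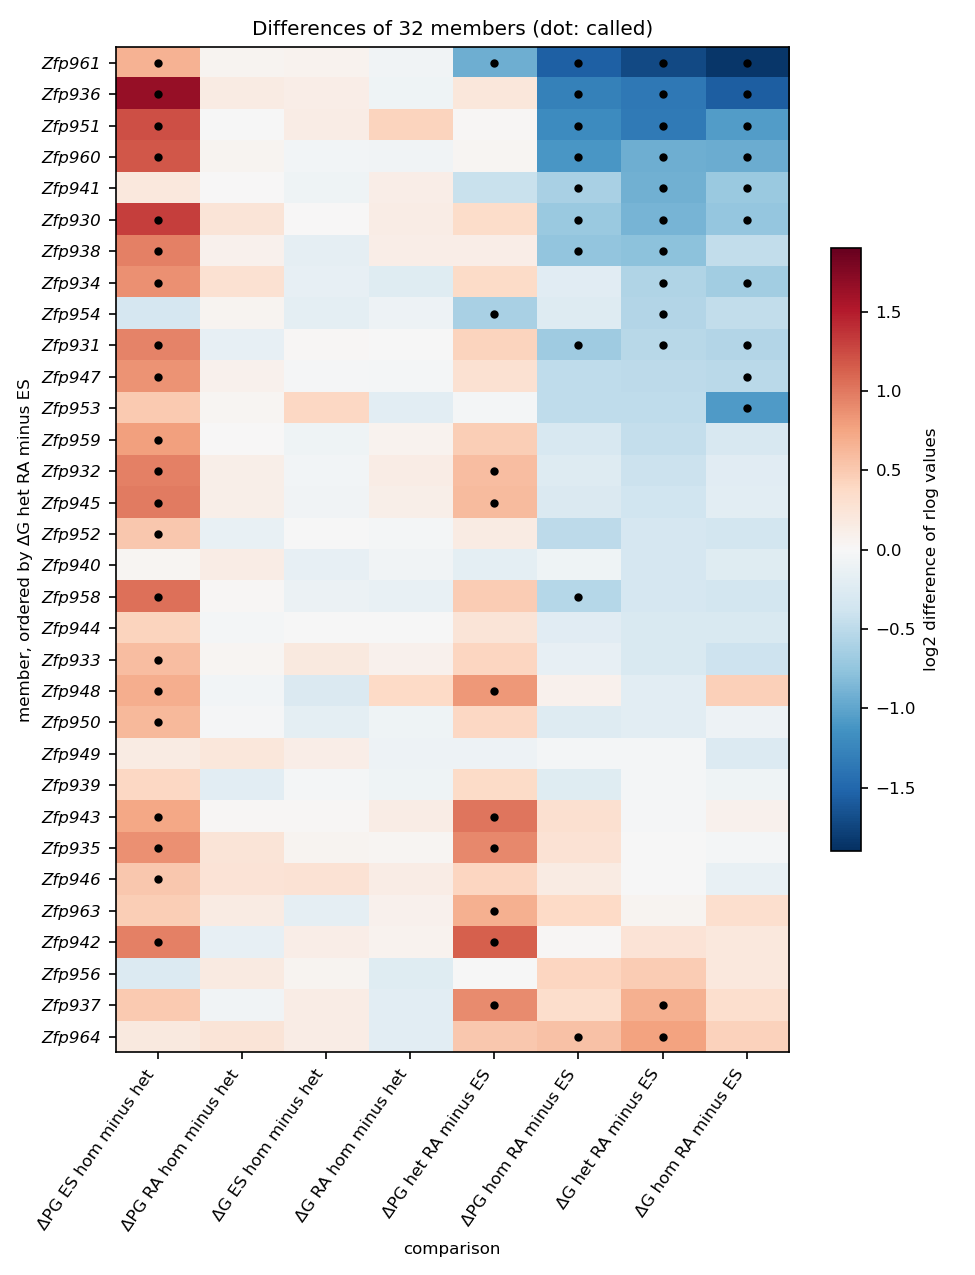
Log2 differences of rlog values are shown as colours for the 32 members (rows, ordered by the ΔG het response to RA) in the 8 comparisons (columns), with a dot where a member was called. Most members are red in ΔPG ES hom minus het, the next 3 columns hold no dot, and the upper rows are blue after RA in ΔPG hom, ΔG het and ΔG hom.

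The comparison of genotypes in ΔPG ES cells asked what loss of the second allele changes in the undifferentiated state. Of the 32 members, 21 were higher in hom and none was lower, where 6.87% of all genes were higher and 6.29% lower. The median difference was 0.68 over members and 0.00 over all genes, and 28 members had groups that did not overlap, as did 39.6% of all genes, and 13.2% of all genes were called in either direction. By the same test 66 of 305 other Zfp genes were higher and 23 lower, with a median of 0.05.

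Zfp936 differed most, from 5.86, 5.63 and 5.91 in het to 7.53, 7.44 and 7.39 in hom, by 1.66 (SE 0.0853, adjusted p = 6.06e-06). Zfp930 read 5.48, 5.50 and 5.33 in het and 6.77, 6.62 and 6.85 in hom, a difference of 1.31 (SE 0.0855, adjusted p = 1.78e-05). Zfp951 read 6.51, 6.22 and 6.20 in het and 7.50, 7.39 and 7.70 in hom, a difference of 1.22 (SE 0.108, adjusted p = 8.16e-05). Every hom sample lay above every het sample in these 3 genes. Zfp960 differed by 1.19, Zfp958 by 1.05 and Zfp961 by 0.66. Called higher were 6 of the 7 members of the chromosome 17 cluster and 15 of the 25 members elsewhere, with medians of 0.73 and 0.62. With the GC trend described below removed, no member of the cluster was called.

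The same libraries held a trend with GC content over all genes. Each sample's deviation from the gene means of its table was set against exonic GC content. The slope per 10 percentage points of GC was 0.28 to 0.29 in the 3 ΔPG ES het samples and -0.23 to -0.19 in the 3 ΔPG ES hom samples. It was -0.06 to -0.02 in the ΔPG RA samples, -0.11 to -0.09 in the ΔG ES samples and 0.05 to 0.14 in the ΔG RA samples. Across 11904 genes the ΔPG ES difference correlated with GC content at r = -0.71, and across the 29 members that reached a mean rlog value of 3 at r = -0.77. Genes are not independent replicates, and these coefficients describe shared libraries.

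**Figure D3:**
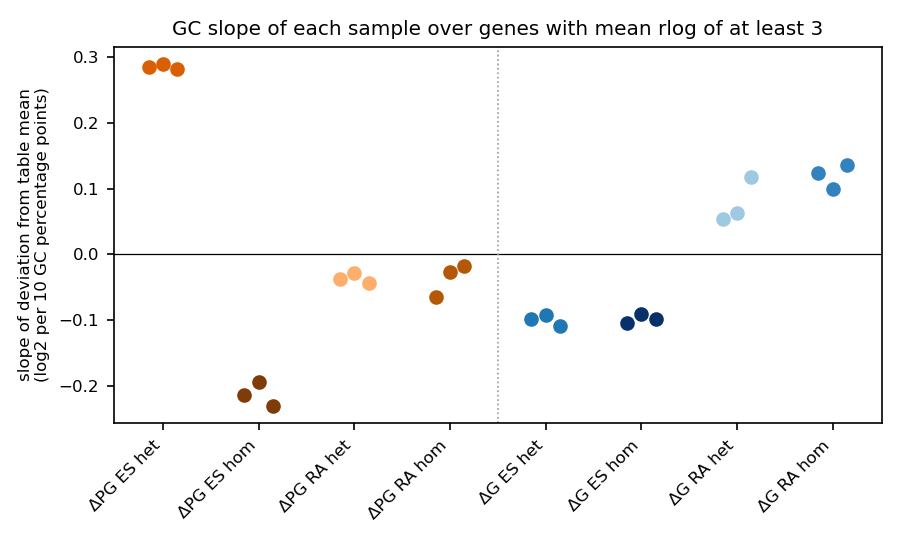
Each point is 1 sample, and its height is the slope of the sample's deviation from the table mean (log2 per 10 GC percentage points) over all genes whose mean rlog reached 3. The 3 ΔPG ES het samples lie highest, at 0.28 to 0.29, and the 3 ΔPG ES hom samples lowest, at -0.23 to -0.19.

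When a smooth curve of the deviation against GC content was subtracted from each sample, 3 of 29 members remained higher in ΔPG ES hom and none was lower, beside 4.49% and 2.8% of all genes. These were Zfp936 at 0.86 (SE 0.0879, adjusted p = 3.82e-10), Zfp951 at 0.67 (SE 0.0841, adjusted p = 3.74e-08) and Zfp930 at 0.61 (SE 0.0985, adjusted p = 3.77e-06). The median over the members came to 0.07. Zfp961 differed by 0.46 (adjusted p = 4.92e-12) and Zfp960 by 0.43 (adjusted p = 0.00251), under the limit of 0.5. Zfp945, which read 0.99 higher before, differed by 0.07. The 3 low members Zfp939, Zfp950 and Zfp964 were not in this fit. Whether the GC trend arose in the cells or in the libraries was not tested.

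**Figure D4:**
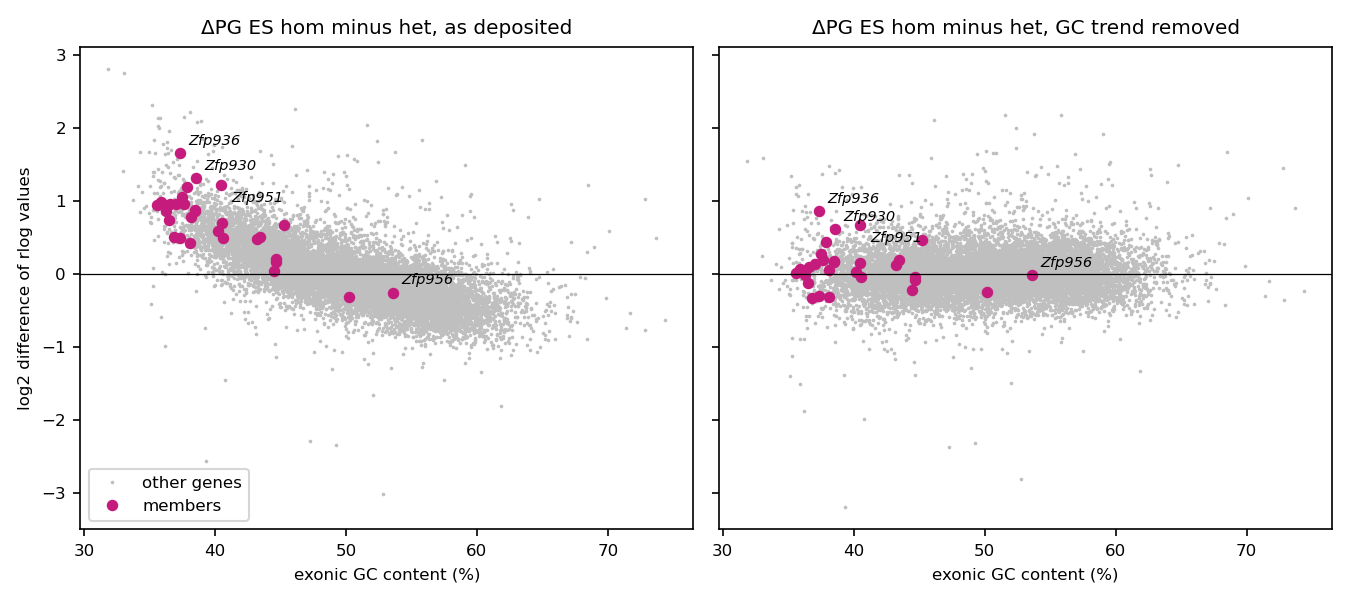
The log2 difference between ΔPG ES hom and het is plotted against exonic GC content (percent) for 11904 genes (grey) and 29 members (magenta), as deposited on the left and with the GC trend removed on the right. Members lie at the low GC end of the falling cloud on the left, and Zfp936, Zfp951 and Zfp930 stand highest among them on the right, at 0.86, 0.67 and 0.61.

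The trend touched the RA comparisons of ΔPG as well, since they share the ES samples. With it removed, 1 member rose (Zfp942, 0.63) and 4 fell (Zfp961, Zfp941, Zfp954 and Zfp953) in ΔPG het, where 23.4% of all genes rose and 22.3% fell. The median member then differed by -0.13 in place of 0.36. Zfp936 differed by -0.31 and Zfp951 by -0.39 in ΔPG het, against 0.21 and 0.02 before. In the other groups 6 of 29 members fell in ΔPG hom and 7 each in ΔG het and ΔG hom with the trend removed. Of all genes, 20.1%, 22.3% and 22.8% fell in these groups. Zfp936, Zfp941, Zfp951, Zfp960 and Zfp961 fell in all 3 of these groups, as did 16.8% of all genes tested in each. Zfp941 and Zfp961 fell in all 4 RA comparisons, for which the share of all genes is not given here. Zfp931 no longer passed in ΔPG hom (-0.35), ΔG het (-0.20) or ΔG hom (-0.18). Zfp934 lost its calls too, at -0.28 in ΔG het and -0.31 in ΔG hom, as did Zfp930 in ΔG hom (-0.50, short of the limit before rounding), Zfp938 in ΔPG hom (-0.46) and ΔG het (-0.49) and Zfp958 in ΔPG hom (-0.30). Zfp954 fell in ΔG het (-0.63) and ΔG hom (-0.53). Members that rose were Zfp943 in ΔPG hom (0.59), Zfp937 and Zfp942 in ΔG het and Zfp948 in ΔG hom, where 22.0%, 23.2% and 23.8% of all genes rose in these groups.

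In ΔPG RA cells no member differed between hom and het, where 0.241% of all genes were higher and 0.605% lower. Only Zfp946 and Zfp940 had groups that did not overlap, at 0.26 and 0.14, where 18.8% of all genes had such groups and 0.846% were called. At an unadjusted p under 0.05 stood 1 member and 14.0% of all genes. No member was called in ΔG ES cells either (0.354% and 0.63% of all genes), nor in ΔG RA cells (0.676% and 1.46%), with 2 members at an unadjusted p under 0.05 in each, beside 15.4% of all genes in ES and 19.6% in RA cells. In each of these ΔG comparisons 5 of 32 members had groups that did not overlap, no more than the 17.8% of all genes in ES and 21.8% in RA cells. Called in either direction were 0.984% and 2.14% of all genes. Zfp951 in ΔG RA cells came close, at 6.36, 6.71 and 6.35 in hom against 6.08, 6.16 and 5.93 in het, a difference of 0.42 (SE 0.11, adjusted p = 0.0208) under the limit of 0.5. No member was called between hom and het in both lines.

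The test of whether the RA response differed between hom and het gave 2 members in ΔG, where 1.19% of all genes were higher and 1.18% lower. Zfp948, with 15 fingers and no match to the KRAB pattern, read 6.56, 6.45 and 6.59 in ES het and 6.22, 6.28 and 6.28 in ES hom. After RA it read 6.54, 6.27 and 6.19 in het and 6.63, 6.76 and 6.72 in hom. Hom samples thus lay below het samples as ES and above them after RA. The RA response was 0.65 larger in hom (SE 0.136, adjusted p = 0.00492), and the call held in each of the 12 fits with 1 library left out.

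Zfp953, a KRAB protein gene on chromosome 13 with 8 fingers, read 5.53, 5.74 and 5.32 in ES het and 6.02, 6.04 and 5.72 in ES hom. After RA it read 4.87, 5.29 and 5.00 in het and 4.74, 5.10 and 4.71 in hom, and het and hom overlapped in both states. Its fall was -1.08 in hom and -0.48 in het, and the difference of -0.60 (SE 0.192, adjusted p = 0.0849) was lost in 8 of the 12 fits with 1 library left out, where it ranged from -0.48 to -0.73 over all 12. It shares exonic bases with Zfp456 and Zfp595 on the same strand.

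**Figure D5:**
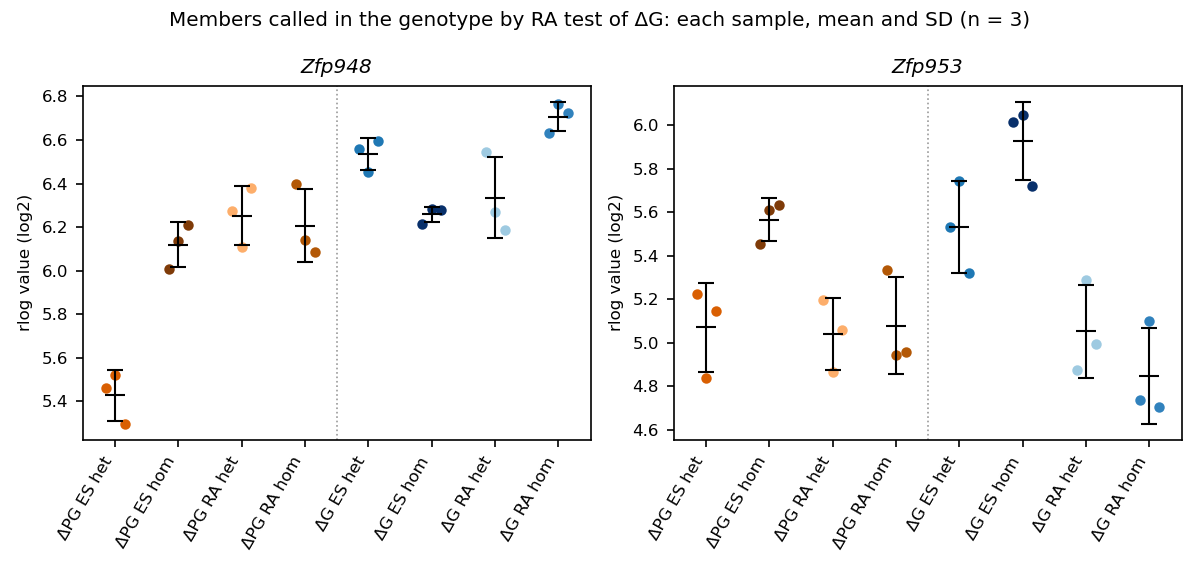
The rlog value (log2) of each sample is plotted for Zfp948 and Zfp953, with points for the 3 samples of a group and a bar for mean and SD. In ΔG, right of the dotted line, Zfp948 reads 6.22 to 6.28 in ES hom and 6.63 to 6.76 in RA hom, and Zfp953 drops further in hom than in het.

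In ΔPG the RA response was lower in hom than in het for 21 members and higher for none, beside 7.19% and 6.72% of all genes. The largest were Zfp936 at -1.50 (SE 0.141, adjusted p = 2.78e-06), Zfp951 at -1.22 (SE 0.17, adjusted p = 9.63e-05) and Zfp960 at -1.13 (SE 0.204, adjusted p = 0.000835). With the GC trend removed 2 were lower, Zfp936 at -0.73 and Zfp951 at -0.68, Zfp960 at -0.40 was not called, and Zfp946 was higher at 0.55, beside 5.71% and 3.7% of all genes.

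The machinery that KRAB proteins recruit was described by a list of 26 genes, of which 25 were tested. The list also holds Zfp57 and Zfp809, which are KRAB proteins themselves and also count among the other Zfp genes. After RA 5 rose and 7 fell in ΔG het, 5 and 8 in ΔG hom, 4 and 6 in ΔPG hom, and 4 and 7 in ΔPG het. Of all genes, 17.7% rose and 11.7% fell in ΔG het, 17.0% and 12.1% in ΔG hom, 16.5% and 11.3% in ΔPG hom, and 18.0% and 13.6% in ΔPG het. With the GC trend removed the counts of the list were 5 and 6, 5 and 7, 4 and 5, and 3 and 6, in the same order. In that fit 23.2% of all genes rose and 22.3% fell in ΔG het, and 23.8% and 22.8% in ΔG hom. The shares were 22.0% and 20.1% in ΔPG hom, and 23.4% and 22.3% in ΔPG het. Chd3, a chromatin remodeller, rose by 1.97 to 2.95 and Suv39h1, a histone methyltransferase, by 1.70 to 2.50 over the 4 comparisons. Zfp57, the KRAB protein that guards imprinted regions, differed by -1.92 to -1.27. Setdb1 differed by -0.69 to -0.56, Hdac1, a histone deacetylase, by -0.88 to -0.58, and Uhrf1, which guides maintenance of DNA methylation, by -1.60 to -0.95. These 6 genes were called in all 4 comparisons with the GC trend removed as well. Pphln1, also on the list, rose and was called in all 4 comparisons, both as deposited and with the GC trend removed. Trim28 itself differed by -0.74 in ΔPG het, where it was called, and by -0.31 to -0.24 in the other groups. Once the trend was removed it differed by -0.51 in ΔPG het and in ΔG hom, where it was called, -0.45 in ΔG het and -0.40 in ΔPG hom.

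Between hom and het, 2 genes of this list were higher and 2 lower in ΔPG ES, where 6.87% of all genes were higher and 6.29% lower, none was called in ΔPG RA or ΔG ES, and 1 was called in ΔG RA. That was Chd3, at 0.53 (SE 0.0615, adjusted p = 5.52e-06), where 0.676% of all genes were higher and 1.46% lower. At an unadjusted p under 0.05, 7 of the 25 differed in ΔPG RA and 14 in ΔG ES, beside 14.0% and 15.4% of all genes. Their absolute differences were small, 0.08 to 0.19 in ΔPG RA and 0.05 to 0.36 in ΔG ES. The shares of all genes also cover genes near the floor. In ΔPG ES all 4 calls were lost with the GC trend removed, for Hdac2 (0.58 to 0.07), Smarcad1 (0.53 to -0.08), Daxx (-0.51 to -0.15) and Ehmt2 (-0.61 to -0.15), and Zfp809, a KRAB protein that silences retroviruses, was called at -0.51. In ΔPG the RA response of Uhrf1 (0.65), Ehmt2 (0.63), Daxx (0.53) and Trim28 (0.50) was higher in hom than in het. That of Smarcad1 (-0.66), Hdac2 (-0.57) and Pphln1 (-0.51) was lower, where 6.72% of all genes were higher and 7.19% lower. None of these calls held with the GC trend removed, where Zfp809 was called at 0.65, beside 3.7% of all genes higher. In ΔG only Zfp809 was called, at -0.62, beside 1.18% of all genes lower.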

How the data were processed

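RNA-seq of 24 samples (8 groups of 3, by line, genotype and treatment as labelled) was used. The authors aligned reads to mm9 with TopHat2 2.1.0, removed duplicates with Picard, counted reads by strand with HTSeq 0.6.0 on GENCODE gene models and transformed the counts with DESeq2 1.14.1. The deposited values are log2-scale rlog values, 1 table per line. They carry no counts, so the depth per sample is unknown. Whether the transformation used the groups is not given in the sources used here. RIP-seq, Capture-C and 4C data were not used here.

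Models were fitted with limma 3.58.1 in R 4.3.3 (lmFit, then eBayes allowing for a trend in variance), on 6 samples for each of 8 comparisons and 12 for the 2 interaction tests, over all varying genes. In tests on simulated data, 190 to 199 of 200 changed genes were recovered over the 8 comparisons, with at most 7 false calls. Alternatives were removal of the GC trend (lowess span 0.3, mean rlog of at least 3), that filter alone, adjusted p under 0.05 with fold over 1.5, no minimum difference, quantile normalization, all 12 samples, no variance trend, a replicate block, and each library left out. Finger and KRAB patterns were searched in translated GENCODE coding sequences: cysteine, any pair of residues, cysteine, 12 residues, histidine, 3 to 5 residues, histidine; and a short KRAB A box consensus around the residues EW.

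Named genes are the 3 largest called rises and falls per comparison without overlap, members called in all 4 RA comparisons, the 3 highest and lowest members, Zfp932 and called partner genes; further members were named after their values were seen. The members and lists were chosen with earlier results of these data known.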

Additional observations from a re-analysis of the deposited data

Results flagged for a closer look

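In ΔPG cells the response to RA differed between hom and het, by the test of that difference itself (limma), for 21 of 32 members, all lower in hom, where 7.19% of all genes were lower. The largest of these were Zfp936 at -1.50, Zfp951 at -1.22 and Zfp960 at -1.13. With the GC trend removed only Zfp936 and Zfp951 were lower, Zfp946 was higher, and Zfp960 was not called. In ΔG cells Zfp948 differed by 0.65 in the same test, with a larger response in hom, and Zfp953 by -0.60.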

How the results depend on the processing

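Counts of called members that moved by more than 1.5 times are grouped here by setting. With the GC trend removed, alone or with the replicate block, the counts were 3 higher in ΔPG ES hom minus het; 1 higher and 4 lower after RA in ΔPG het; 1 higher after RA in ΔG hom; and 1 higher and 2 lower in the ΔPG interaction. Without a minimum difference, 1 was lower in each of the ΔPG ES and ΔG ES genotype comparisons and 2 were higher in ΔG RA. In that setting 19 rose and 4 fell after RA in ΔPG het, 3 and 16 in ΔPG hom, 4 and 19 in ΔG het, 3 and 19 in ΔG hom, and 2 were higher in the ΔPG interaction. Of all genes, 23.8% then fell in ΔG het and 23.4% in ΔG hom, against 11.7% and 12.1% with the minimum difference. For the other counts in this setting the shares of all genes are not given here, so they cannot be set against a background. Restricted to a mean rlog of at least 3, 0 rose in ΔPG hom and 1 in ΔG het. Adjusted p under 0.05 with fold over 1.5 left 0 higher in ΔPG hom after RA and 0 lower in the ΔG interaction. Quantile normalization left 0 higher after RA in ΔPG hom and in ΔG het, 19 lower in ΔG het, 17 lower in ΔG hom and 0 lower in the ΔG interaction, and the last was also 0 without the variance trend. It moved the median of all genes by less than 0.1, while the median member after RA went from -0.32 to -0.62 in ΔG het and from 0.36 to 0.08 in ΔPG het. The cause was not tested.

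With each library left out, counts ranged from 20 to 23 higher in ΔPG ES; 9 higher and 2 lower after RA in ΔPG het; 0 to 2 higher and 8 to 11 lower in ΔPG hom; 2 to 3 higher and 10 to 11 lower in ΔG het; 0 higher and 9 to 11 lower in ΔG hom; 0 to 1 higher and 18 to 22 lower in the ΔPG interaction; and 1 higher and 0 to 1 lower in the ΔG interaction. All other genotype counts stayed at 0. The replicate numbers do not pair the samples (correlation of deviations -0.03 to 0.09 over all pairs), and with the replicate block alone 21 members were higher in ΔPG ES.

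Of 59 named differences under 901 alternatives, 796 kept direction and side of the limits, 65 fell short of the limits, 24 newly passed them and 16 changed sign. The sign changes, none of a called difference, were in ΔPG het after RA and in Zfp943. With the GC trend removed, alone or with the block, they were Zfp930 at -0.12, Zfp936 at -0.31 and Zfp951 at -0.39. Zfp951, at 0.02 in the report, was also at -0.0585 after quantile normalization and between -0.0651 and 0.1593 with each library left out. Zfp943 after RA, at -0.02 in ΔG het, was at 0.26 with the GC trend removed, alone or with the block, and between -0.1418 and 0.1084 with each library left out. In ΔPG hom it went from 0.30 to -0.0936 after quantile normalization.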
